A study of Mus musculus with 86 samples.

Results

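The reporter oligos tiled across the 3′ UTR of mouse Spock2 were followed through 3 assays of a pool that covered 16 UTRs. Members were taken by name, as every oligo that carries the symbol Spock2, and were ordered by oligo number. The massively parallel reporter assay (MPRA) held 996 of them among 11955 oligos. They were 610 oligos of native sequence and 386 companions in which the TDP-43 motifs were mutated. RNA Bind-n-Seq (RBNS), which measures binding of purified TDP-43 to the pool in vitro, listed 919 Spock2 oligos of 11537 in all, 568 native and 351 mutated. SLAM-seq, which follows the loss of 4-thiouridine (4SU) label from the reporter RNA, listed 976 of 11594, 601 native and 375 mutated.

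The series of 86 samples compared the RNA of soma and neurites between neuronal cells that had or lacked TDP-43. The MPRA, SLAM-seq and 1 set of RNA-seq libraries came from CAD cells, a mouse neuronal line, and another set came from N2A cells, a mouse neuroblastoma line. Neurites were separated from cell bodies by growing the cells on porous membranes. All cells of these experiments, controls included, carried an HA-tagged TDP-43 transgene that doxycycline switches off, in clonal lines whose own Tardbp alleles had been cut with CRISPR, and were grown without serum to differentiate. Those called wild-type cells here received no doxycycline, and those called knockout cells received it for 48 h, at 2 μg/mL in the labels and at a lower dose in the study's methods. There were 4 MPRA libraries for each combination of genotype and compartment, and 3 RNA-seq libraries for each in each line. A further 12 RNA-seq libraries came from CAD lines that expressed a wild-type or a Q331K TDP-43 transgene, 3 for each combination of transgene and compartment. These lines kept their own Tardbp alleles. By the study's methods, doxycycline switched both of these transgenes on, and was given for longer than the 48 h above. SLAM-seq had 3 knockout libraries at 0 h and 3 at 12 h after labeling, 2 wild-type libraries at 0 h, 3 wild-type libraries at 12 h and 3 libraries of wild-type cells without 4SU. RBNS had 1 input library, 1 library without protein (0 nM) and 2 libraries at each of 5, 50 and 500 nM TDP-43. Nothing in the labels says that replicates came from separate thaws or clones, so p-values measure the spread between these libraries.

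Spock2 encodes testican-2, a secreted proteoglycan of the SPARC family that is made in brain and carries heparan sulfate chains. TDP-43 is an RNA-binding protein that prefers stretches of alternating U and G, and it acts on the splicing, stability and transport of its targets. A 3′ UTR is the part of an mRNA after the stop codon, where many elements that set stability and location lie. In the MPRA each oligo stood in the 3′ UTR of the same GFP reporter, so that a difference between oligos came with the inserted sequence, and the companion of an oligo tested its motifs.

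The tile spanned 3914 bases in oligos of 260 bases that stepped by 6 bases, on the plus strand of chr10:60131382-60135295 (GRCm38, GENCODE vM21). It began with 100 coding bases, the stop codon included, ran through the 3717 bases of the 3′ UTR of transcript Spock2-201, which lies within exon 11, and ended 97 bases past the annotated transcript end. The positions were found from the mutated spans in the oligo names: all 665 spans that did not touch an oligo edge fell on motif bases at this placement, against 168 at the next best. The motifs searched were GUGUG, its shifted form UGUGU, and also the word GUAUG, all on the RNA strand, with overlapping matches merged into runs. They formed 16 runs. A cluster of 6 runs lay early in the UTR, at chr10:60131626-60131736, with 74 motif bases in 111 bases. The longest run, of 43 bases, lay in the middle of the UTR at chr10:60133055-60133097, and a GA repeat of 36 bases followed it at chr10:60133099-60133134. The other runs held 5 to 9 bases. A motif was in 64.4% of the 593 native oligos that lay wholly within the transcript, against 58.7% of windows of the same length and step across 17196 mouse 3′ UTRs. Only 0.264% of those windows held a run as long as the mid-UTR run. The sequences below are shown because the results turn on them: both ends of the early cluster, the first 30 bases of the mid-UTR run, the repeat after it, and a lone motif late in the UTR for contrast. Capitals mark motif bases, and all are written as DNA, 5′ to 3′ on the RNA strand.
early cluster start, chr10:60131626-60131655: GTGTGgctTGTGTGTATGTGTGatatgaga
early cluster end, chr10:60131711-60131736: TGTGTGTGTGTGTGTGTGTGTGTGTG
mid-UTR run, chr10:60133055-60133084: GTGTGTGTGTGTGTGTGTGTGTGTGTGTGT
GA repeat, chr10:60133099-60133128: gagagagagagagagagagagagagagaga
lone late motif, chr10:60134224-60134248: gaggtagggcTGTGTtggaaagagt

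By this map, 25 native oligos (17 to 41) held the whole early cluster, and 35 (1 to 16 and 42 to 60) held part of it. The mid-UTR run was whole in 36 (244 to 279) and in part in 14 (237 to 243 and 280 to 286). Of the others, 273 held only short runs, 210 held no motif, and 17 reached past the transcript end. Neighbouring oligos share nearly all of their sequence, so runs of neighbours are not independent observations, and each was compared between conditions over libraries.

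MPRA libraries held 7923270 to 12208997 UMIs and SLAM-seq libraries 10782983 to 33024830 reads, while RBNS libraries held 1806779 to 9646262 reads. Levels in the MPRA are CPM, counts of UMIs per library scaled to a common size, after edgeR's TMM scaling. The TMM factors of knockout neurite libraries were 0.707 to 0.761, against 1.06 to 1.15 in all others, so the scaling lifts these libraries. With the total of UMIs in its place, the median change of the localization ratio over all oligos moved from -0.01 to -0.51, and the pool's calls moved from 614 higher and 33 lower to 492 higher and 10442 lower. Changes are therefore given relative to the TMM reference. In these bulk fractions, fewer cells with an RNA and less of it per cell cannot be told apart.

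Localization was measured as the log2 of the neurite over the soma level (localization ratio, LR), and the LR change as the knockout value less the wild-type value. The LR change was higher for native Spock2 oligos in 2 stretches, at the early cluster and at the mid-UTR run, and for no motif-mutated companion. Of 607 native oligos tested, 66 had a higher LR in knockout cells and 0 a lower one (10.9%, against 5.15% of the 11918 oligos tested that were higher and 0.277% that were lower, edgeR's quasi-likelihood test at a Benjamini-Hochberg FDR of 0.01). These pool shares, and those given below for single oligos, count native oligos and companions together. The MPRA pool held 7389 native oligos and 4566 companions. With total UMIs the split was 40 higher and 516 lower, against 492 and 10442 in the pool. The 66 were oligos 11 to 41, 252 to 285 and 247, so that all but the last fell into 2 unbroken runs of 31 and 34. None of the 386 companions tested passed in either direction, with 16 at an unadjusted p below 0.05, against 1182 of the 11918 oligos in the pool. Among native oligos, each knockout LR lay above each wild-type LR in 83 of 609 and below in 10 (13.6% and 1.64%, against 6.53% and 2.26% of the 11926 oligos with an LR in every library). Among 386 companions the counts were 5 and 10 (1.3% and 2.59%).

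The largest changes were at oligo 278 (chr10:60133044-60133303), where the mid-UTR run sits near the 5′ end. In wild-type cells it was at 47.8, 57.3, 57.6 and 46.6 CPM in neurites and at 76.9, 63.9, 62.9 and 55.7 in soma. In knockout cells it reached 1306, 1174, 1323 and 1325 in neurites and 162, 161, 195 and 162 in soma. Every knockout library was above every wild-type library of its compartment. The LRs were -0.69, -0.16, -0.13 and -0.26 in wild-type cells and 3.01, 2.87, 2.76 and 3.03 in knockout cells, where each LR sets the neurite against the soma library of the same replicate number. The LR change was 3.23 (SE 0.13, adjusted p = 2.37e-16 by edgeR's quasi-likelihood test). Its companion, with the motifs mutated, was at 12.7 to 17.2 CPM in wild-type neurites and at 16.8 to 22.2 in knockout neurites. The companion's LR ranged from -0.10 to 0.42 in wild-type cells and from 0.06 to 0.35 in knockout cells. These ranges overlapped, and the companion's LR change was 0.10 (SE 0.15, adjusted p = 0.95). Oligos 277, 273, 272 and 274, the next in size, had LR changes of 3.15, 2.98, 2.84 and 2.82, each with an SE of at most 0.13.

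The LR change followed where the run stood within the oligo, among oligos that all held its 43 bases. Oligos were binned by the base of the oligo at which the run began, in bins of 50 bases chosen after the values were seen. In oligos 244 to 246 it began between bases 216 and 204, near the 3′ end, and the LR change was 0.05 to 0.14. It was 0.12 to 1.01 in oligos 247 to 254, 1.42 to 1.74 in oligos 255 to 263 and 1.47 to 2.09 in oligos 264 to 271. In oligos 272 to 279, where the run began between bases 48 and 6, it was 2.18 to 3.23. The change in soma did not climb in the same way. The soma medians of these 5 bins were 0.76, 1.08, 1.53, 1.52 and 1.56, and the neurite medians 0.88, 1.28, 3.20, 3.36 and 4.33. The GA repeat was whole in oligos 250 to 287, so from oligo 250 to 279 it was present at every place of the run. The place of the run changed together with how much other sequence stood before and after it, and these cannot be told apart here. Once the run was cut at the 5′ end, in oligos 280 to 286, the LR change ran from 2.43 down to 0.29. In oligos 287 to 298, which lack the run, it was -0.10 to 0.15. Over the 14 oligos with part of the run, those that held its 3′ end (280 to 286) had a median LR change of 1.26 and those that held its 5′ end (237 to 243) one of 0.06.

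To take each stretch as 1 value per library, the UMIs of its native oligos were summed. The 36 oligos with the whole mid-UTR run had summed LRs of -0.38, -0.25, -0.11 and -0.02 in wild-type cells and of 1.53, 1.44, 1.43 and 1.61 in knockout cells, with no overlap. The means were -0.19 ± 0.16 and 1.5 ± 0.08 (SD, n = 4 each), a 3.24-fold rise of neurite over soma. For their companions the means were 0.08 ± 0.13 and 0.06 ± 0.09 (SD, n = 4 each), and the libraries overlapped.

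At the early cluster the LR changes were smaller and the rise in soma was of a similar size. The 25 oligos with the whole cluster had a median LR change of 0.57 (0.39 to 1.5), against 1.65 (0.05 to 3.23) over the 36 of the mid-UTR run. Their median change in soma was 1.33, against 1.48. Summed over the 25, the LRs were -0.47, -0.33, -0.23 and -0.14 in wild-type cells and 0.42, 0.35, 0.43 and 0.42 in knockout cells. The groups did not overlap, with means of -0.29 ± 0.14 and 0.40 ± 0.04 (SD, n = 4 each). Oligo 20 had LRs of -0.49, -0.41, -0.18 and -0.06 in wild-type cells and of 0.92, 0.87, 1.12 and 1.05 in knockout cells. Its LR change was 1.28 (SE 0.09, adjusted p = 8.51e-12 by edgeR's quasi-likelihood test). Its companion had LRs of -0.14 to 0.23 in wild-type and 0.07 to 0.27 in knockout cells, which overlapped, and an LR change of 0.18 (SE 0.11, adjusted p = 0.68). For the companions of all 25, the median LR change was -0.05, and the summed LRs averaged 0.12 ± 0.10 in wild-type and 0.09 ± 0.06 in knockout cells (SD, n = 4 each).

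Levels rose in both compartments of knockout cells, over wider stretches than the LR. In soma, 102 of 607 native oligos were higher and 0 lower (16.8%, against 7.55% and 0.101% of all oligos tested). They were oligos 5 to 53, 240 to 288, and 3, 346, 472 and 474. In neurites, 105 were higher and 4 lower (17.3% and 0.659%, against 8.06% and 0.696%), at oligos 4 to 53, 239 to 289, and 1, 2, 472 and 475. With total UMIs the splits were 95 higher and 69 lower in soma and 86 higher and 507 lower in neurites. Of the 11918 oligos in the pool, 812 were then higher and 1584 lower in soma, and 705 higher and 10852 lower in neurites. Oligos 42 to 53 thus were higher in soma without passing the test for the LR. The largest soma change was at oligo 41, which held the early cluster at its 5′ end. It was at 51.7, 53.7, 44.4 and 38.8 CPM in wild-type soma and at 179, 178, 173 and 172 in knockout soma, with no overlap. That is a log2 change of 1.90 (SE 0.06, adjusted p = 2.46e-17 in edgeR's test), against -0.08 (SE 0.10) for its companion. The largest neurite change was at oligo 277, which was at 41.6 to 48.4 CPM in wild-type neurites and at 1143 to 1276 in knockout neurites, a log2 change of 4.77 (SE 0.08).

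In wild-type cells, where TDP-43 was present, oligos of the early cluster were lower in neurites than in soma. Of 607 native oligos 34 were lower in neurites and 0 higher (5.60%, against 1.48% of all oligos that were lower and 2.57% that were higher). Of the 34, 26 lay between oligos 12 and 47, 3 were oligos 255, 258 and 275 of the mid-UTR run, and 5 lay between oligos 335 and 352. The median LR of the 25 oligos with the whole early cluster was -0.30 in wild-type cells and 0.24 in knockout cells, and that of their companions 0.11 and 0.07. Oligo 41 had LRs of -0.67, -0.66, -0.37 and -0.14 in wild-type cells, all below 0, and a fitted LR of -0.47 (SE 0.07, adjusted p = 9.27e-05). Without replicate 1 the count fell from 34 to 12, and without replicate 2 to 17. In the pool the count of lower oligos fell from 176 to 61 and to 82 in these sets.

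Those last 5 belong to a stretch whose LR lay below 0 in both genotypes. Oligos 335 to 352 hold no motif and a median of 42.3% C, against 27.3% over all 593 oligos. The stretch was bounded by the first and last of those 5, so its low LR in wild-type cells follows in part from that choice. Its oligos had a median LR of -0.29 in wild-type cells and -0.37 in knockout cells. Their LR change was -0.19 to 0.06, with none past the threshold. Oligo 341 had LRs of -0.43, -0.56, -0.41 and -0.27 in wild-type cells and -0.36, -0.15, -0.48 and -0.63 in knockout cells, ranges that overlapped, and a fitted LR in wild-type cells of -0.42 (SE 0.08, adjusted p = 0.00111 in edgeR's test).

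The pair test asked whether mutation of the motifs changed the LR change itself, within each library. It fell with the mutation in 60 of 386 Spock2 pairs and rose in 0 (15.5%, against 7.58% of 4551 pairs that fell and 0.022% that rose, edgeR's test at an FDR of 0.01). The 60 were oligos 12 to 28, 30 to 36, 38 to 40 and 252 to 284. The difference was -3.14 (SE 0.14, adjusted p = 1.60e-13) at oligo 278 and -1.09 (SE 0.12, adjusted p = 2.69e-07) at oligo 20. Some companions were called in a compartment. In soma 13 of 386 were higher (3.37%, against 7.55% of all oligos tested), the companions of 254 to 259 and of 281 to 287, with changes of 0.22 to 0.44. In neurites 18 were higher and 3 lower (4.66% and 0.777%, against 8.06% and 0.696%), and 11 of the 18 were the companions of 279 to 289, with changes of 0.22 to 0.56. The others were the companions of 7, 118, 254 to 256, 258 and 471, and the 3 lower ones those of 23, 238 and 492.

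The rest of the UTR moved little. The median LR change was -0.02 over the 273 native oligos with only short runs (-0.27 to 0.20), -0.02 over the 273 companions of these (-0.28 to 0.50) and -0.02 over the 210 without a motif (-0.24 to 0.42). The first oligo, number 1, had an LR change of 0.23 (SE 0.13, adjusted p = 0.66), which was -0.27 with total UMIs, and the last, number 610, one of -0.25 (SE 0.50). The 4 native oligos that were lower in knockout neurites were 56, 132, 494 and 195, with log2 changes of -0.50, -0.31, -0.19 and -0.18, each of which lost the call in at least 1 set without a replicate number.

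Blocks of 50 consecutive native oligos, summed per library as a share of all UMIs, were compared without a model. The LR change was 0.98 for oligos 251 to 300 and 0.06 for oligos 1 to 50, and between -0.66 and -0.46 in the other 11 blocks. Relative to the median block, at -0.52, these were 1.5 and 0.58, with the others between -0.14 and 0.06. The smallest two-sided p of the exact permutation test with 4 against 4 libraries is 0.0286, which 12 of 13 blocks reached (adjusted p = 0.031 over the blocks). All but oligos 1 to 50 thus passed, 11 of them with a lower share. On the TMM scale the changes were 1.49 and 0.56 for those 2 blocks and -0.16 to 0.04 elsewhere, and no block passed, with adjusted p = 0.12 for 251 to 300 and for 1 to 50 in the exact permutation test. With a floor of 0.0286, the adjustment over 13 blocks lets a block pass only when most blocks reach that floor. A change confined to 2 blocks could therefore not pass, and this test cannot decide on them.

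In vitro, TDP-43 bound the early cluster at 50 and 500 nM. Binding is given as R, the share of an oligo in a library over its share in the input, and was tested in edgeR with libraries scaled by total reads. Oligo 34, which holds the whole cluster, had an R of 1.11 at 0 nM, 2.19 and 4.19 at 5 nM, 14.1 and 22.7 at 50 nM, and 10.6 and 7.11 at 500 nM. Its R was above that at 0 nM in each of the 6 libraries with protein. The log2 change was 4.20 at 50 nM (SE 0.55, adjusted p = 0.00267) and 3.15 at 500 nM (SE 0.51, adjusted p = 0.00161). Its companion had an R of 0.644 at 0 nM, 0.704 and 2.31 at 50 nM, and 3.01 and 2.40 at 500 nM, a log2 change of 1.43 at 500 nM (SE 1.01, adjusted p = 0.26). Summed over the 25 oligos with the whole cluster, R was 1.06 at 0 nM, 1.84 and 3.70 at 5 nM, 8.09 and 11.7 at 50 nM, and 8.62 and 5.82 at 500 nM. For their companions it was 0.766, 1.01 and 0.992, 1.37 and 2.17, and 3.07 and 2.33. At each of the 3 concentrations, both libraries were above both companion values.

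Across the UTR, 104 of 516 native oligos tested were bound above input at 50 nM and 66 fell below it (20.2% and 12.8%, against 11.5% and 31.4% of 11025 oligos tested, FDR of 0.05). At 500 nM the counts were 105 and 152 (20.3% and 29.5%, against 12.3% and 29.2%). At 5 nM both were 0 (against 0.0272% and 0.0181%), with 66 at an unadjusted p below 0.05, against 1305 of the 11025 in the pool. There TMM scaling gave 8 higher and 2 lower, against 27 and 53 in the pool. DESeq2 gave 16 and 3, against 57 and 83. With TMM scaling, the splits were 168 higher and 23 lower at 50 nM and 132 and 82 at 500 nM. In the pool of 11025 they were 2290 and 2014 at 50 nM and 2279 and 1955 at 500 nM. Oligos bound at 500 nM included 6 to 43 and 239 to 243, which take in the early cluster and the start of the mid-UTR run, and 285 to 293, 295 to 298 and 463 to 478 with 480 to 498. Input and 0 nM had 1 library each, whose spread was assumed to match that of the other groups.

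The core of the mid-UTR run could not be read in RBNS. Of its 36 native oligos 33 had fewer than 10 input reads, and the 36 together had 80. In all, 71 of the native oligos had no input read, and a count of 0 allows up to 3 reads in that library. The low stretches were oligos 247 to 283, 335 to 373 and 585 to 610. Summed over the 36, R was 0.764 at 0 nM, 3.91 and 5.92 at 50 nM and 5.73 and 3.94 at 500 nM, values that rest on those 80 reads. Of the 3 with at least 10 input reads, oligo 244 had an R of 2.73 and 5.05 at 50 nM, and oligo 245, with 10 input reads, of 7.52 and 14.8. Just outside it, oligo 243, which lacks the last 4 bases of the run, had an R of 10.2 and 15.7 at 50 nM and 7.64 and 5.52 at 500 nM, against 1.19 at 0 nM.

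Past the run, binding did not go with an LR change. Oligo 290 holds no base of the mid-UTR run. Its R was 1.0 at 0 nM, 6.98 and 13.5 at 50 nM and 10.7 and 6.92 at 500 nM, and that of its companion 0.847, 7.20 and 14.1, and 10.5 and 6.32. The pair difference at 500 nM was -0.08 (SE 0.27, adjusted p = 0.90). Over oligos 287 to 298 the median log2 change at 500 nM was 2.80 in native oligos and 2.59 in companions, while the median LR change was 0.06. Oligos 458 to 498, with a median of 35.0% G against 26.2% over the 593, had a median log2 change at 500 nM of 1.82 in native form and of 1.53 as companions, and their LR change was -0.16 to 0.10. Oligo 470 of this stretch, which holds the lone late motif shown above, had an R of 1.30 at 0 nM, 5.57 and 12 at 50 nM, and 10.8 and 7.17 at 500 nM. The companions of oligos 470 to 476, with that motif mutated, were called bound at 500 nM too, with log2 changes of 1.22 to 2.40. The pair difference at oligo 470 was not called.

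Other stretches were depleted at 500 nM. Oligos 153 to 192, with no motif, had a median log2 change of -2.32, and oligos 413 to 427 one of -2.21. Oligo 165 had an R of 1.55 at 0 nM, 0.871 and 1.11 at 5 nM, 0.962 and 0.218 at 50 nM and 0.0530 and 0.0451 at 500 nM. Its log2 change was -4.34 at 500 nM (SE 0.64, adjusted p = 0.00129). At 50 nM, oligos 560 to 562, 564 and 565 were among the lowest, and here the library without protein was low too. Oligo 561 had an R of 0.158 at 0 nM and 0.0706 and 0.0578 at 50 nM. Against 0 nM its log2 change at 50 nM was -1.31 (adjusted p = 0.14), in place of -3.97 against input.

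The effect of the motif mutation on binding at 500 nM was tested in 323 Spock2 pairs. Binding fell with the mutation in 22 and rose in 9 (6.81% and 2.79%, against 14.5% and 3.23% of 4118 pairs). The falls were at oligos 7 to 17, 20, 30, 34, 38 and 239, and at 493, 556 to 558, 561 and 563. The largest was -2.16 at oligo 20 (SE 0.46, adjusted p = 0.0142), which against 0 nM was -0.30. The rises were at oligos 57, 59, 81, 84, 86 to 89 and 108. Against 0 nM, 5 of the 9 kept their direction, with differences of 1.95 at oligo 57, 1.32 at 59, 0.02 at 81, 0.36 at 86 and 1.12 at 108, and 4 turned, at oligos 84, 87, 88 and 89. The companions had an R at 0 nM of 1.01 at oligo 57, 1.27 at 59 and 1.05 at 108, and of 4.55 to 11.5 at the other 6. The companion of oligo 87 had an R of 11.5 at 0 nM, 9.10 and 7.52 at 5 nM, 10.1 and 10.6 at 50 nM and 3.01 and 2.22 at 500 nM, while oligo 87 itself went from 2.03 to 0.881 and 0.837. Its pair difference was 1.60 against input and -0.91 against 0 nM, and that of oligo 88 was 1.48 and -0.66, so the direction of both turned with the reference.

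Set side by side across native oligos, the LR change had a Pearson's r of 0.68 and a Spearman's rho of 0.43 with the number of motif bases (593 oligos), and of 0.49 and 0.35 with the log2 change in RBNS at 500 nM (516 oligos). The change in soma had an r of 0.63 and a rho of 0.45 with the latter. These points share libraries and overlapping sequence, and most of the mid-UTR run is missing from RBNS. The 2 RBNS libraries at 500 nM had an r of 0.97 with each other, those at 50 nM of 0.91 and those at 5 nM of 0.62.

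In SLAM-seq the rate is the percentage of T positions read as C, which marks RNA made during labeling. Replicate 1 of the knockout cells at 12 h stood apart: its rate over all oligos was 1.37%, against 0.465% and 0.511% in the other 2, and 1.81% to 1.91% at 0 h. Its read counts over the oligos also lay nearer to the 3 libraries of knockout cells at 0 h (chi-square per degree of freedom of 3.19, 3.10 and 10.1) than to its own group (22.0 and 15.4). The results are given with it and, as chosen after seeing the data, without it. Wild-type cells were at 1.94% and 1.93% at 0 h and 1.17%, 1.17% and 1.33% at 12 h, and cells without 4SU at 0.244%, 0.194% and 0.164%.

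The rate was lower at 12 h than at 0 h in every class of Spock2 oligo and both genotypes. For the 25 native oligos with the whole early cluster, the rate was 1.59% and 1.55% in wild-type cells at 0 h and 0.864%, 0.857% and 0.981% at 12 h. In knockout cells it was 1.51%, 1.56% and 1.61% at 0 h and 1.12%, 0.310% and 0.347% at 12 h. Without 4SU it was 0.223%, 0.221% and 0.195%. The share of the 0 h rate kept at 12 h was thus 57.4% in wild-type cells and 37.8% in knockout cells, or 21.0% without replicate 1. With the rate without 4SU subtracted from both, these were 50.7%, 28.0% and 8.58%. For the 36 oligos with the mid-UTR run the shares kept were 55.5%, 43.8% and 28.7%, and for the 210 without a motif 65.8%, 47.2% and 32.2%, or 48.5%, 35.1% and 17.6% and 61.1%, 39.4% and 22.1% after subtraction. The companions of the early cluster kept 74.0%, 47.6% and 31.8% (70.7%, 40.9% and 23.2% after subtraction), and those of the mid-UTR run 62.6%, 52.2% and 38.2% (58.1%, 45.8% and 29.8%).

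With all libraries, none of 549 native oligos had a lower rate at 12 h in wild-type cells and 531 did in knockout cells (0.0% and 96.7%, against 0.00946% and 97.2% of 10576 oligos tested, edgeR's test at an FDR of 0.05). No oligo had a difference between genotypes past the threshold (0.0% of the pool), with 9 native oligos at an unadjusted p below 0.05, against 260 of the 10576 in the pool. Without replicate 1 of knockout cells at 12 h, 531 were lower in wild-type cells, 548 in knockout cells (against 96.8% and 99.7% of the pool) and 541 in the difference between them (98.5%, against 96.2% of the pool lower and 0.0378% higher), a share near that of the pool. No wild-type library was left out in that set, so the rise from 0 to 531 came with the wild-type data unchanged. The median change in wild-type cells over the 549 native oligos was -0.647 with all libraries and -0.646 in that set. Why the calls changed was not tested. With the libraries numbered 2 or those numbered 3 left out instead, the 531 in knockout cells fell to 0. The pool's 10282 fell to 0 as well. Without replicate 1 of knockout cells at 12 h the median difference was -1.15 over all native oligos, against -1.32 over the pool. It was -1.48 at the early cluster (-1.26 in its companions), -0.98 at the mid-UTR run (-0.71), -1.16 with short runs only and -1.10 without a motif. At 0 h, 0 oligos differed between genotypes with either set of libraries (0.0% of the pool with all of them), with 0 and 17 at an unadjusted p below 0.05, against 0 and 328 in the pool.

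The endogenous gene (ENSMUSG00000058297) was higher in both compartments of knockout cells, and more so in neurites. Tardbp, the targeted gene, was at 515, 569 and 526 CPM in wild-type CAD soma and 92.7, 90.4 and 98.3 CPM in knockout soma, and at 546 to 601 and 160 to 179 CPM in N2A soma. In CAD neurites Spock2 was at 118, 101 and 103 CPM in wild-type cells and 742, 901 and 853 CPM in knockout cells. In soma it was at 198, 198 and 219 CPM and at 441, 449 and 430 CPM. Every knockout library was above every wild-type library of its compartment. The LR went from -0.93 to 0.92, a change of 1.85 (SE 0.12, adjusted p = 8.70e-08 by edgeR's quasi-likelihood test). Of 17343 genes tested, 0.225% had a higher LR past this threshold and 0.208% a lower one. In wild-type cells alone, 23.7% of genes were higher in neurites and 17.7% lower. The log2 changes were 1.10 in soma and 2.95 in neurites (SE 0.08 and 0.09). By comparison, the summed oligos with the mid-UTR run had an LR change of 1.69 and those with the early cluster of 0.69.

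In N2A cells Spock2 was at 46.5, 44.8 and 47.8 CPM in wild-type neurites and 132, 125 and 138 CPM in knockout neurites. In soma it was at 152, 154 and 152 CPM and at 198, 215 and 222 CPM, again without overlap. The LR went from -1.72 to -0.68, a change of 1.04 (SE 0.10, adjusted p = 0.000113 in edgeR's test), with 0.0893% of 17912 genes higher and 0.0112% lower. In wild-type N2A cells 32.5% of genes were higher in neurites and 26.6% lower. Unlike in CAD cells, the LR stayed below 0 in knockout cells. The LR change kept its size without replicate 2 (0.99) but not its call (adjusted p = 0.44 in edgeR's test), as without replicate 3 (1.04, adjusted p = 0.0131). Without replicate 2 the rise in soma went from 0.47 (adjusted p = 0.000153) to 0.56 (adjusted p = 0.0381). In the transgene lines Spock2 was at 61.4, 57.4 and 58.5 CPM in Q331K neurites and 79.6, 66.5 and 88.2 CPM in wild-type transgene neurites. The 3 Q331K libraries were lower than the other 3, with a log2 change of -0.40 (SE 0.09, adjusted p = 0.19), and 0.0% of 13940 genes tested passed in this contrast. Without the filter on low counts the change was the same, with an adjusted p = 0.00490 in edgeR's test. The LR change was -0.29 (SE 0.13, adjusted p = 0.999) and the change in soma -0.12. Nearly all reads were assigned to Spock2-201, the transcript that holds the tiled UTR.

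Few genes of any kind had a changed LR, at the shares given above (0.225% higher and 0.208% lower in CAD cells, 0.0893% and 0.0112% in N2A cells), so the counts of 0 that follow are near those of the pool. Of 8 genes of the SPARC family 6 were tested in each line, and Spock2 was the 1 gene with a changed LR in both. Sparc, which codes for osteonectin, and Fstl1, a secreted follistatin-like protein, were lower in CAD knockout soma, with log2 changes of -1.92 and -1.83 (SE 0.11 and 0.09), and their LR changes were 0.02 and 0.18. Among 9 proteases and inhibitors that testicans are known or proposed to act on, 5 were tested in CAD cells and 0 had a changed LR. Ctsl, Mmp15, Mmp24 and Timp2 were lower in CAD knockout soma and neurites, and Mmp17 was higher in N2A knockout neurites, against 11.6% and 13.5% of genes lower in CAD soma and neurites and 6.48% higher in N2A neurites. Of 23 proteoglycan core proteins, 17 were tested in CAD cells and 15 in N2A cells, and none had a changed LR. In CAD knockout soma, 2 were higher (Ncan, Sdc3) and 7 lower (Agrn, Bgn, Gpc1, Gpc6, Sdc1, Srgn, Vcan), against 11.2% and 11.6% of genes higher and lower. In N2A knockout neurites 5 were higher (Gpc6, Hspg2, Ncan, Sdc1, Sdc3) and Srgn lower, against 6.48% and 5.1%. In CAD knockout neurites Sdc3 was higher and 10 were lower (Agrn, Bgn, Col18a1, Gpc1, Hspg2, Sdc1, Sdc2, Sdc4, Srgn, Vcan), against 11.8% and 13.5%. In N2A knockout soma Gpc6 and Sdc3 were higher and Srgn lower, against 10.9% and 5.15%. Neuronal genes such as Tubb3, Stmn2 and Snap25 were at 48.9 TPM or more in every library, whereas Nefl and Nefm, neurofilament genes, were at most 0.150 TPM. The 6 glial and microglial markers were at most 3.01 TPM, and Mog, Aqp4 and Cx3cr1 were at or near 0. Their summed level was 0.918 to 1.89 TPM in wild-type CAD soma and 1.68 to 3.79 TPM in knockout soma. The 3 catecholaminergic markers summed to 12.7 to 23.4 TPM and 36.8 to 55.4 TPM there, with Dbh higher and Th lower in knockout cells past the threshold. Their part in the Spock2 result was not tested.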

How the data were processed

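The authors deposited UMI and read counts per oligo for the MPRA, read counts for RBNS, and T and converted-T counts for SLAM-seq. The study's methods and the submitters' notes name cutadapt, bowtie2 and, for SLAM-seq, a modified PIGPEN. For RNA-seq the authors deposited salmon's estimated counts and TPM per transcript. Versions were not given in the sources used here. Estimated counts were summed per gene (GENCODE vM21, which matched the deposited transcripts but not the release the methods name) and rounded, and 0.0737 to 0.129% of them had no gene.

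Counts were tested across all oligos or genes in edgeR 4.0.16 (R 4.3.3) with the quasi-likelihood test, Benjamini-Hochberg adjustment and an FDR of 0.01 for the MPRA and RNA-seq and 0.05 for RBNS and SLAM-seq. MPRA and RNA-seq used TMM scaling, and RBNS used total reads. SLAM-seq modelled T read as C against T read as T per oligo, over oligos with at least 1000 T positions in each library. Summed blocks of oligos used exact two-sided permutation tests. DESeq2 1.42.0, limma 3.58.1, other scalings, filters, thresholds and left-out replicates were alternatives. Same-numbered RNA-seq libraries correlated at 0.549, 0.123 and 0.324 between genotypes in N2A soma and at 0.135, 0.100 and 0.230 between wild-type CAD compartments, from the data alone. Scripts were tested on simulated data. Oligos were named where they had 1 of the 5 largest rises or falls of a test, stood at the end of a run of called oligos, or were the first or last of the tile. Others were chosen after their values were seen. The oligos and gene lists were chosen with earlier results of these data known. Human motor neurons were not analysed here. Counting limits cover counting error only.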

Additional observations from a re-analysis of the deposited data

Results flagged for a closer look

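In 2 of 62 groups of 4 libraries tested, 1 library lay far from the other 3 by Dixon's ratio, and chance alone gives about 1 in 20. In wild-type cells, replicate 1 had a summed LR of -0.25 for native oligos with part of the early cluster (ratio 0.875). In knockout cells, replicate 2 had a summed LR of 0.35 for those with the whole cluster (ratio 0.976), against 0.42 to 0.43 in the other 3.

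Differences of an effect between compartments or between paired oligos were tested directly. The LR change of endogenous Spock2, which compares the knockout effect in neurites with that in soma, was 1.85 in CAD cells and 1.04 in N2A cells. It was higher in 66 native Spock2 oligos. Mutation of the motifs lowered it in 60 pairs.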

How the results depend on the processing

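Of 564 alternative values for 66 results on named oligos, 523 kept direction and call, 37 kept direction and lost the call, and 4 reversed: oligo 1 with total UMIs (-0.27), oligo 610 without replicate 3 (0.016, with a range from -0.50 over the replicates left out), and the RBNS pairs of oligos 87 and 88 against 0 nM (-0.91 and -0.66). The cause was not tested for these or for the values that follow. Native oligos with a higher LR numbered 40 with total UMIs, and those lower in neurites of wild-type cells 70 at an FDR of 0.05 and 12 to 37 with a replicate left out. In the pool these were 492, 317 and 61 to 166. In RBNS, native oligos higher at 5 nM numbered 8 (TMM), 16 (DESeq2) and 18 (crossed block), and at 50 nM 61 (FDR of 0.01), 168 (TMM) and 170 (DESeq2). In the pool these were 27, 57 and 41 at 5 nM and 594, 2290 and 2380 at 50 nM. Native oligos lower at 50 nM numbered 18 (FDR of 0.01), 32 (0 nM as reference) and 23 (TMM and DESeq2), and at 500 nM 95, 82 and 89 (FDR of 0.01, TMM and DESeq2). In the pool these were 1137, 1465, 2014 and 1950 at 50 nM, and 1600, 1955 and 1881 at 500 nM. RBNS pairs that fell numbered 10 at an FDR of 0.01 and 36 against 0 nM, and 1 rose at an FDR of 0.01. Of the 4118 pairs in the pool, these were 311, 708 and 29. In SLAM-seq, native oligos lower at 12 h in wild-type cells numbered 1 with limma, 531 without replicate 1 of knockout cells at 12 h, 490 with background also subtracted, and 0 to 443 with a replicate number left out. In knockout cells the range was 0 to 548. For the difference between genotypes the counts were 541, 538 and 0 to 524. Pool counts with a replicate number left out were 0 to 8516, 0 to 10531 and 0 to 9739 in the same order. Leaving out replicate 1 of knockout cells at 12 h hardly moved the median wild-type change of native oligos (-0.647 and -0.646). On the TMM scale the block of oligos 251 to 300 was at 1.49 and 0 blocks passed, where a change confined to few blocks could not pass. As shares of the library, 24 of the blocks of 25 oligos passed. The N2A LR change was 0.99 to 1.04 and the N2A soma change 0.49 to 0.56 with a replicate left out, and the transgene neurite change without a filter was -0.40.

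Correlations of same-numbered MPRA libraries ran from -0.07 to 0.18, and did not show that the numbers pair these libraries. In RNA-seq every pair was over 0.1 for N2A soma between genotypes and for wild-type CAD soma against neurites, where the block kept the call (0.47 and -0.93), and it changed no other call on endogenous Spock2. With the replicate block, 66 native oligos had a higher LR, 51 were lower in wild-type neurites, and the endogenous LR change was 1.85 in CAD and 1.04 in N2A cells. In the pool of 11918 oligos, 608 then had a higher LR and 191 were lower in wild-type neurites. The RBNS numbers at 50 and 500 nM correlated at -0.23, so a block with the 500 nM numbers crossed was added after seeing the data, as were the total-UMI scaling, the TMM blocks and the set without replicate 1. The crossed block gave 116 and 113 native oligos higher at 50 and 500 nM, against 1510 and 1613 of the 11025 in the pool. RBNS without single replicates and the human neurons were not run. Few input reads limit RBNS at the mid-UTR run.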
